A study of Mus musculus with 44 samples.

Results

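The genes described here are 8 lymphocyte genes of the mouse, chosen by name out of 20105 RefSeq transcript identifiers with counts, and each of the 8 names matched 1 identifier. Of these, 5 are T cell genes (Cd3e, Lck, Themis, Skap1 and Bcl11b), 2 are B cell genes (Pax5 and Cd79b), and Ptprc is carried by all leukocytes. They were followed in RNA of liver nuclei from male HEP-INTACT mice, in which hepatocyte nuclei carry a tag and can be pulled down from a liver homogenate. The labels give neither the promoter that drives the tag nor the age of the animals.

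All 22 mice carried the tag. In 1 study, mice ate the diet called FPC for 20 weeks, and in the other the diet called CDAHFD, a high-fat feed without choline, for 7 weeks. Both diets induce non-alcoholic steatohepatitis (NASH), and control mice of each study ate a low-fat diet for the same weeks. Animals on a NASH diet were sorted into advanced and mild disease by the histology of their livers, so these groups were not randomised, and diet, duration and study cannot be told apart. Each study held 4 control, 4 mild and 3 advanced mice. Every animal gave 2 libraries, 1 of pulled-down hepatocyte nuclei and 1 of all liver nuclei, called whole liver here, which makes 44 libraries in 12 groups. Library totals ran from 12.1 to 33.1 M counts. A single mouse carries its disease group and its number from the labels as a name, as in Advanced_6880.

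In a liver, T cells recognise antigen through a receptor complex, and the signal runs inward from its CD3 chains to a kinase and then to adaptors. B cells do the same through immunoglobulin and the CD79 chains. Both kinds of cell patrol the sinusoids of a healthy liver in small numbers and gather in portal tracts and around fat-laden hepatocytes in steatohepatitis. Cd3e encodes a signalling chain of the T cell receptor complex. Lck is the kinase that phosphorylates that complex, Themis is a protein that tunes the signal during selection in the thymus, and Skap1 is an adaptor that couples the receptor to integrins. Bcl11b is a transcription factor needed for T cell identity. Pax5 is the transcription factor that holds B cell identity, and Cd79b is a signalling chain of the B cell receptor. Ptprc encodes CD45, the phosphatase on the surface of leukocytes.

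On GRCm38.p6, Cd3e spans chr9:44998735-45009663, Lck chr4:129548344-129573641, Themis chr10:28668360-28883820, Skap1 chr11:96464570-96759622, Bcl11b chr12:107910403-108004145, Pax5 chr4:44524748-44710694, Cd79b chr11:106311341-106314562 and Ptprc chr1:138062859-138175756. The length used for counting equalled the whole gene for 94.7% of the genes in the authors' deposited table, which holds 1 of the 8. Introns were taken to count with exons for all 8, and the per-length levels given here rest on that. The spans range from 3.222 kb for Cd79b to 215.5 kb for Themis and 295.1 kb for Skap1.

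Promoters are shown for Cd3e and Lck, a chain of the T cell receptor complex and a kinase that acts on it, and for Themis, the gene with the highest mean CPM per length in hepatocyte nuclei. The sequences are those of RefSeq on GRCm38.p6, in windows of 300 bases around a start site, read 5′ to 3′ on the strand of the gene. They lie at chr9:45009562-45009861 on the minus strand for Cd3e, and, each for the upstream of its start sites, at chr4:129573592-129573891 on the minus strand for Lck and chr10:28668110-28668409 on the plus strand for Themis. Capitals mark matches on either strand to the motifs searched. These were the letters AGGAAG for the core that factors of the ETS family bind, the letters TGTGGT for factors of the RUNX family, and the letters CAGCTG for an E-box bound by helix-loop-helix factors. The others were the letters TATAAA for a TATA box, the letters CAAAGT for an element of HNF4, a factor of hepatocytes, and the C/EBP motif, written TTGCNNAA, of another family active in liver.
Cd3e: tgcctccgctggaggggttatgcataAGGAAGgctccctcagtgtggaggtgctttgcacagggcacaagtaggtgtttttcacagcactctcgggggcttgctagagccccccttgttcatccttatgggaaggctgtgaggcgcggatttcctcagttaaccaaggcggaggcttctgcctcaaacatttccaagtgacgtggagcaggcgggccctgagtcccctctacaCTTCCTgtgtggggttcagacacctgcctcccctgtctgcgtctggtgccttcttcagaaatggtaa
Lck: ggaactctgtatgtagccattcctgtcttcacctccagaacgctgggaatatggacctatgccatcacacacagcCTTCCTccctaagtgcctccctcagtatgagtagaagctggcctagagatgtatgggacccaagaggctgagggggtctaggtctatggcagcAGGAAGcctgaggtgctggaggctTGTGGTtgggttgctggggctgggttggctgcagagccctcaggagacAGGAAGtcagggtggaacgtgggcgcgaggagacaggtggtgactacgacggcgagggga
Themis: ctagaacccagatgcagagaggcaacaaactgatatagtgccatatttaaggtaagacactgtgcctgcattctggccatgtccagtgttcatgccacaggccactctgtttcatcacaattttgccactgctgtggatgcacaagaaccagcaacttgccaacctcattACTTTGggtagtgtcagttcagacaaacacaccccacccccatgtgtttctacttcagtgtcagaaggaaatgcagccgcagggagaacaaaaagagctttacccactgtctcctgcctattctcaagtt

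The ETS letters occurred 2 times in the Cd3e window and 3 times in the Lck window, which also held the RUNX letters 58 bases before the start site. The Themis window held the HNF4 letters once, 80 bases before the start site, and no match to the other motifs. The HNF4 letters also stood in windows of the other start site of Lck, of Bcl11b and of Ptprc. No match overlapped another. Of 32851 promoters of this length in the table, 35.4% held the ETS letters, 16.8% the RUNX letters, 14.4% the HNF4 letters, 16.3% the E-box, 13.6% the TATA box and 10.8% the C/EBP letters. These matches describe letters only.

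Levels are given as CPM, the count of a gene scaled to the total of its library. Changes between groups are log2 fold changes ± standard error from edgeR's quasi-likelihood test after trimmed-mean (TMM) scaling, and a gene was called where its adjusted p was under 0.05. The scalings differ. Against TMM, library totals shift all genes of whole liver upward in disease, by 0.44 (log2) in advanced against control FPC mice, 0.29 in mild against control FPC mice, 0.46 in advanced against control CDAHFD mice and 0.38 in mild against control CDAHFD mice. CPM therefore overstates a rise relative to the typical gene. In advanced against control FPC whole livers, 52.8% of all called genes were higher after TMM and 82.6% after scaling by library totals, and the other 3 comparisons of NASH with control whole livers moved by as much (53.0 to 57.8% after TMM, 83.0 to 86.2% after library totals). In hepatocyte nuclei the same 4 comparisons gave 51.0 to 66.0% after TMM and 77.4 to 87.7% after library totals. Between advanced and mild mice, the share was 59.7% after TMM and 79.7% after library totals in FPC whole livers, 44.2 and 63.7% in CDAHFD whole livers, 62.9 and 80.7% in FPC hepatocyte nuclei, and 46.1 and 81.9% in CDAHFD hepatocyte nuclei.

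In whole liver nuclei of mice with advanced FPC disease, the 5 T cell genes and Ptprc were higher than in controls and the 2 B cell genes were not called. Of the 8 genes 6 were higher, against 31.3% of all 14129 genes tested, and none was lower, against 28% of all genes. The median of the 8 log2 changes was 1.78, and that of all genes -0.003. In such bulk samples a change in the number of cells that hold an RNA and a change in RNA per cell cannot be told apart. Ptprc is carried by all leukocytes, and Themis in hepatocyte nuclei stood at a median of 97.0% of its whole liver level over the 22 mice. Neither gene can be read as lymphocyte RNA alone.

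Bcl11b had the smallest adjusted p of the 8 genes in advanced mice. It measured 3.92, 4.47, 2.87 and 3.63 CPM in control mice, 12.6, 10.6, 10.2 and 7.55 CPM in mild mice, and 17.1, 30.7 and 20.5 CPM in advanced mice. The 3 groups did not overlap. Against control its log2 change was 2.16 ± 0.22 (adjusted p = 4.4e-06) in advanced and 1.18 ± 0.21 (0.00076) in mild mice, and advanced exceeded mild mice by 0.98 ± 0.21 (0.0063).

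Lck followed the same order in these mice. Its levels were 2.44, 1.81, 1.28 and 1.78 CPM in control, 5.23, 3.50, 3.64 and 4.12 CPM in mild, and 7.08, 13.0 and 7.65 CPM in advanced mice, again without overlap. Its log2 change was 1.89 ± 0.26 (adjusted p = 4.2e-05) in advanced and 0.91 ± 0.25 (0.01) in mild mice against control. Advanced exceeded mild mice by 0.98 ± 0.25 (0.013), a call that was lost without Advanced_6880, the highest (0.70, adjusted p = 0.084). By edgeR with TMM scaling, Bcl11b and Lck were the 2 of the 8 genes called between advanced and mild FPC mice, where 13.3% of all genes were higher. Cd3e lay next to the threshold (0.94 ± 0.32, adjusted p = 0.0503) and was called by DESeq2 (0.96, 0.034) and after RLE scaling (0.96, 0.049).

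Cd3e rose with them at a much lower count. It ranged from 0.475 to 1.001 CPM in control, 0.987 to 2.21 CPM in mild and 2.54 to 4.63 CPM in advanced mice. Advanced mice lay above all others, and the lowest mild mouse overlapped the highest control mouse. The log2 change was 1.83 ± 0.34 (adjusted p = 0.00047) for advanced and 0.90 ± 0.33 (0.046) for mild against control. The mild call stands near the threshold: it was lost in 8 of 11 fits that left out 1 mouse each. Those were fits without Control_6852, Control_6952, Control_6953, Mild_6825, Mild_6886, Mild_6888, Advanced_6826 or Advanced_6904 (adjusted p 0.051 to 0.19).

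Skap1 ranged from 12.5 to 26.8 CPM in control, 31.3 to 68.6 CPM in mild and 58.2 to 111 CPM in advanced FPC mice. No NASH mouse overlapped a control mouse. It was higher by 1.69 ± 0.31 (adjusted p = 0.00054) in advanced and 0.92 ± 0.29 (0.023) in mild mice. Its mild call was lost without Control_6952 (adjusted p = 0.063), Control_6953 (0.053) or Mild_6825, in the last case with a change of 0.56 and an adjusted p of 0.091.

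Ptprc, the pan-leukocyte gene, was the most abundant of the 8 per length. It measured 64.1, 48.5, 31.8 and 39.9 CPM in control, 349, 167, 190 and 138 CPM in mild, and 294, 273 and 292 CPM in advanced FPC mice. Mild_6825 exceeded every advanced mouse, while the other mild mice lay between the control and advanced groups. The log2 change against control was 2.20 ± 0.31 (adjusted p = 7.4e-05) in advanced and 1.93 ± 0.29 (0.00027) in mild mice. Between advanced and mild mice the difference of 0.27 ± 0.30 (0.59) did not pass the test. Without Mild_6825 this difference did (0.68, adjusted p = 0.033), and Cd3e (1.27, 0.0092) and Skap1 (1.11, 0.011) were then called as well. The share of all genes called in that fit is not given here, so these added calls have no background beside them.

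After TMM scaling, the B cell genes stayed closer to control than the T cell genes under the FPC diet. Pax5 measured 15.1, 11.9, 11.2 and 9.03 CPM in control, 18.1, 21.6, 17.1 and 16.6 CPM in mild, and 15.9, 14.6 and 15.6 CPM in advanced mice. Its log2 change was -0.06 ± 0.16 (adjusted p = 0.78) in advanced and 0.35 ± 0.15 (0.072) in mild mice. The ratio of mean CPM alone would give 0.38 for advanced mice, so the sign depends on the scaling, and after library-total scaling the mild value was called (0.63, 0.0044), as it was without Control_6816 (0.48, 0.017). Cd79b ranged from 0.375 to 0.713 CPM in control, 0.868 to 1.61 CPM in mild and 0.750 to 1.19 CPM in advanced mice, on 12 to 32 counts a library. In CPM no NASH mouse overlapped a control mouse for Cd79b, and no mild mouse did for Pax5. Such separation is thus not particular to the T cell genes, and its share over all genes is not given here. The log2 changes of Cd79b follow, advanced before mild. Its changes of 0.47 ± 0.33 (0.25) and 0.65 ± 0.32 (0.12) were not called, and with library totals both were (0.91, 0.034, and 0.93, 0.033). In mild FPC mice the same 6 of 8 genes as in advanced mice were thus higher, against 25% of all genes.

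**Figure D1:**
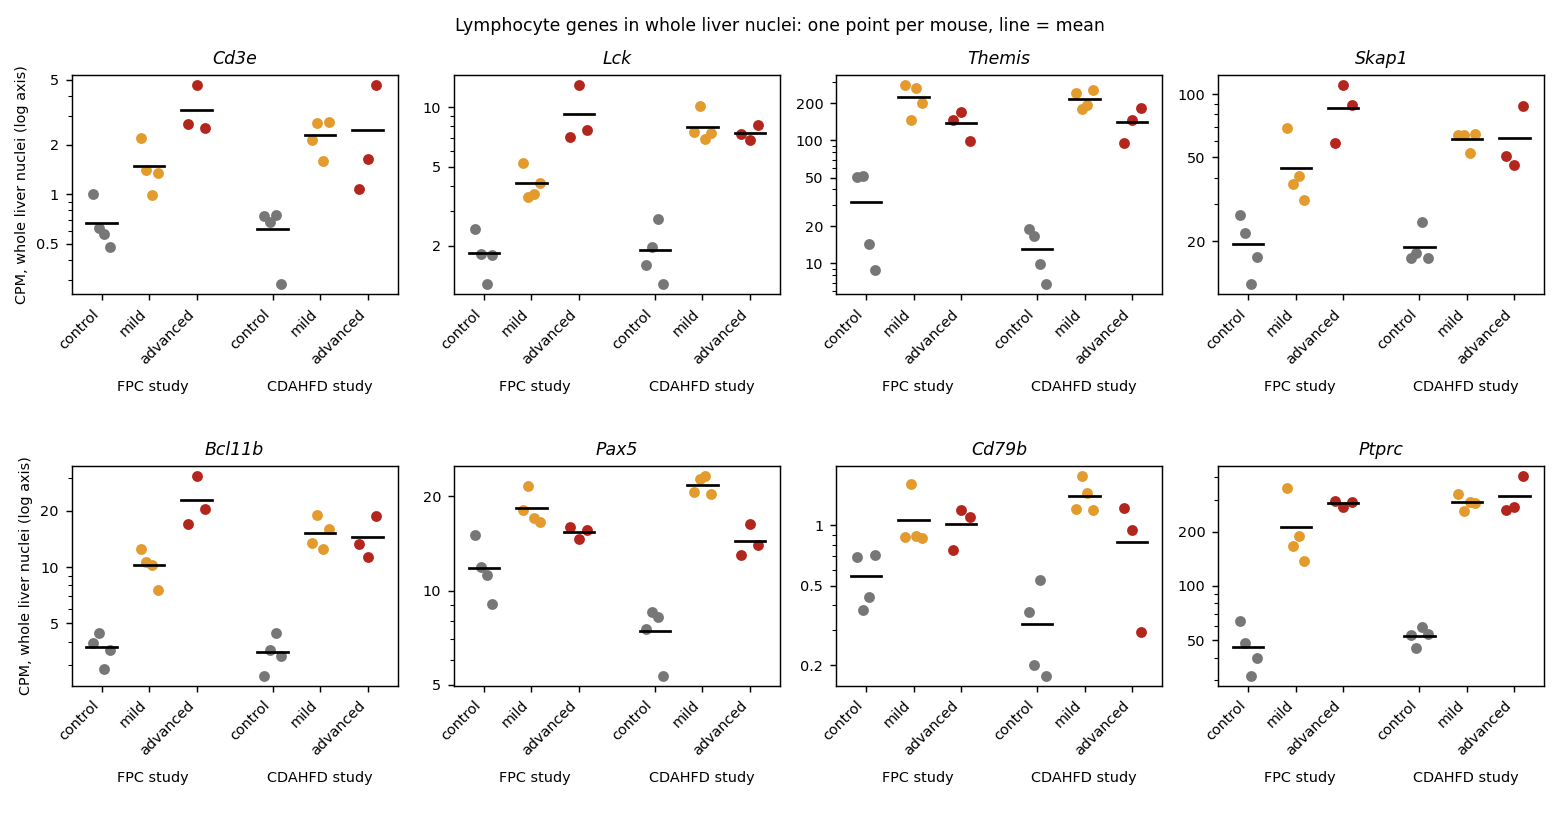
Levels of the 8 genes in whole liver nuclei, in CPM on log axes with a range of its own for each gene; each point is a mouse, lines are means, and grey, orange and red mark control, mild and advanced mice. Bcl11b and Lck step upward from control to mild to advanced FPC mice, whereas their mild and advanced points overlap in the CDAHFD study, and the means of Themis and Pax5 are highest in mild mice of both studies.

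Under CDAHFD the whole set was higher in mild disease. All 8 genes were called higher in mild against control mice, where 27.7% of all 14098 genes were. In advanced mice 7 of 8 were, where 29.7% of all genes were. The median log2 change was 1.73 in mild and 1.56 in advanced mice, against -0.01 in mild and 0.002 in advanced mice for all genes.

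Bcl11b measured 2.63, 3.59, 4.43 and 3.36 CPM in control, 13.5, 18.9, 12.4 and 16.0 CPM in mild, and 13.3, 11.3 and 18.8 CPM in advanced CDAHFD mice. Advanced and mild mice overlapped widely, and both lay above every control mouse. The changes were 1.59 ± 0.23 (adjusted p = 6.9e-05) in advanced and 1.74 ± 0.22 (2.8e-05) in mild mice.

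Lck measured 1.60, 1.96, 2.72 and 1.27 CPM in control, 7.48, 10.1, 6.89 and 7.43 CPM in mild, and 7.34, 6.79 and 8.16 CPM in advanced mice. Ptprc measured 53.5, 45.5, 58.9 and 53.8 CPM in control, 325, 260, 290 and 287 CPM in mild, and 262, 274 and 407 CPM in advanced mice. In both genes NASH mice stood apart from controls and advanced mice overlapped mild ones. Lck was higher by 1.53 ± 0.23 (adjusted p = 0.00012) in advanced and 1.71 ± 0.22 (4e-05) in mild mice, and Ptprc by 2.11 ± 0.16 (3.6e-07) and 2.08 ± 0.16 (3.4e-07).

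Skap1 ranged from 16.6 to 24.7 CPM in control, 52.3 to 64.4 CPM in mild and 46.1 to 88.2 CPM in advanced mice, with advanced and mild changes of 1.26 ± 0.22 (adjusted p = 0.00035) and 1.32 ± 0.21 (0.00019). Cd3e ranged from 0.283 to 0.747 CPM in control, 1.59 to 2.74 CPM in mild and 1.08 to 4.67 CPM in advanced mice. Its rise in advanced mice was 1.58 ± 0.49 (0.015) but rested on Advanced_10104, the highest: without it the change was 0.70 (0.17). The mild change was 1.54 ± 0.47 (0.015).

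Pax5 and Cd79b had lower means in advanced than in mild CDAHFD mice. Pax5 measured 7.52, 8.55, 8.22 and 5.34 CPM in control, 20.7, 22.7, 23.3 and 20.3 CPM in mild, and 13.0, 16.3 and 14.0 CPM in advanced mice, and the 3 groups did not overlap. Against control it was higher by 0.50 ± 0.16 (adjusted p = 0.016) in advanced and 1.18 ± 0.15 (2.9e-05) in mild mice. Without Advanced_9896 the first of these was not called (0.43, 0.073), nor was it when only the advanced and control groups were fitted (0.47, 0.067).

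Between advanced and mild CDAHFD mice Pax5 was the 1 gene of the 8 that was called, with a difference of -0.68 ± 0.16 (adjusted p = 0.048), where 1.05% of all genes were lower. The size of that difference held while its call did not: in 9 of 11 fits with a mouse left out (all but Control_9867 and Control_10113) the log2 difference was -0.76 to -0.62 and the adjusted p 0.059 to 0.16. The call was also lost without an expression filter (-0.68, 0.053) and after library-total scaling (-0.59, 0.089). Cd79b ranged from 0.177 to 0.534 CPM in control, 1.19 to 1.77 CPM in mild and 0.294 to 1.22 CPM in advanced mice. It was higher by 1.79 ± 0.45 (0.0052) in mild mice, and its change of 0.92 ± 0.50 (0.13) in advanced mice was not called; without Advanced_10104 or after library-total scaling it was (1.33, 0.021, and 1.38, 0.030).

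**Figure D2:**
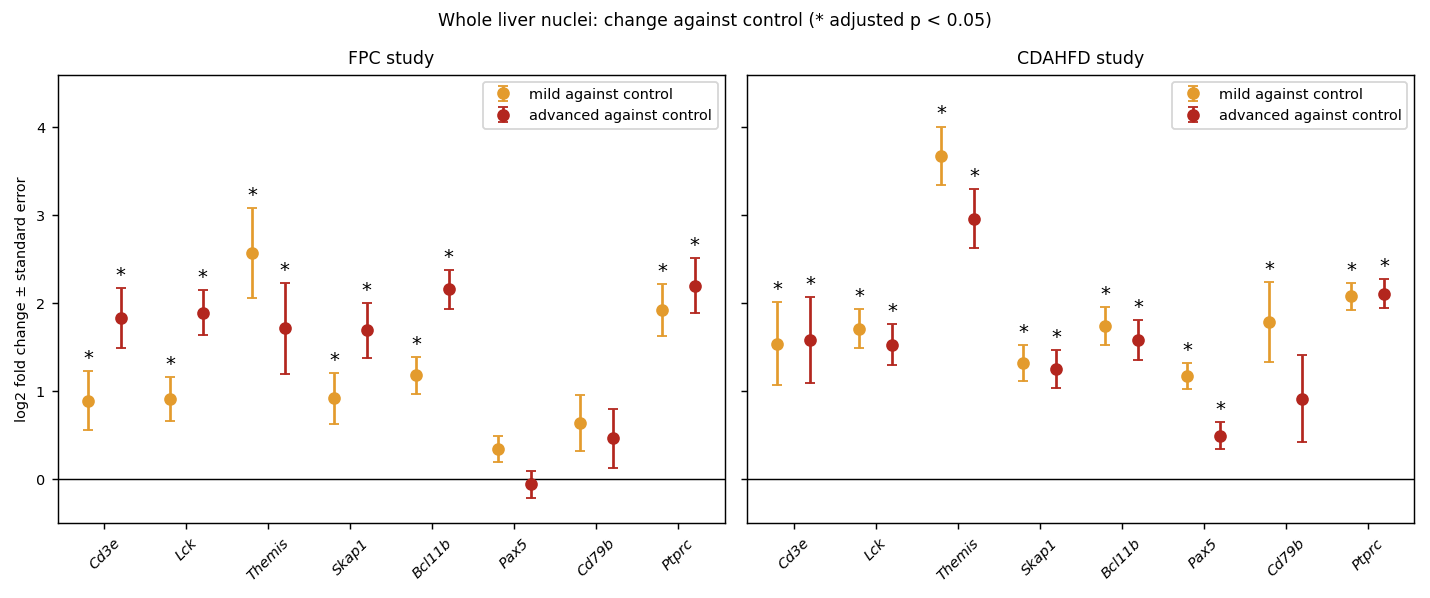
Log2 fold changes ± standard error of the 8 genes in whole liver nuclei, mild against control (orange) and advanced against control (red), for each diet study; asterisks mark adjusted p under 0.05. The T cell genes and Ptprc lie above 0 throughout, while Pax5 lies at -0.06 in advanced FPC mice and at 1.18 in mild CDAHFD mice.

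The difference between the diets was tested in a fit of all 22 whole liver libraries. For mild against control mice, the change of Pax5 was larger under CDAHFD than under FPC by 0.82 ± 0.21 (adjusted p = 0.025), where 2.69% of all genes were called in that direction. It was the only call among the 8 genes, and it was lost without Control_6816, Mild_6887 or Mild_6888 of the FPC study or Mild_9894 of the CDAHFD study (0.69 to 0.80, adjusted p 0.053 to 0.059). Of all genes called in this test 53.7% were higher after TMM and 72.3% after library totals. For advanced against control mice none of the 8 was called by edgeR (1 at an unadjusted p under 0.05, and 0 with DESeq2), where 4.67% of all genes were.

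The balance of T to B cell genes was read within each library as the ratio of Lck to Pax5, both in CPM per kb of gene, a measure chosen after the values were seen and given without a test. Under FPC this ratio averaged 1.15 ± 0.25 in control, 1.68 ± 0.40 in mild and 4.47 ± 1.80 in advanced mice (SD, n = 4, 4 and 3). Under CDAHFD it averaged 1.86 ± 0.39, 2.70 ± 0.44 and 3.84 ± 0.68. Every advanced FPC mouse (3.26 to 6.55) lay above every mild FPC mouse (1.19 to 2.12). With Bcl11b in place of Lck the means were 0.64, 1.11 and 2.97 under FPC and 0.96, 1.39 and 2.02 under CDAHFD. A ratio within a library does not depend on scaling, but it shows unequal change of the genes and not which of them changed.

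**Figure D3:**
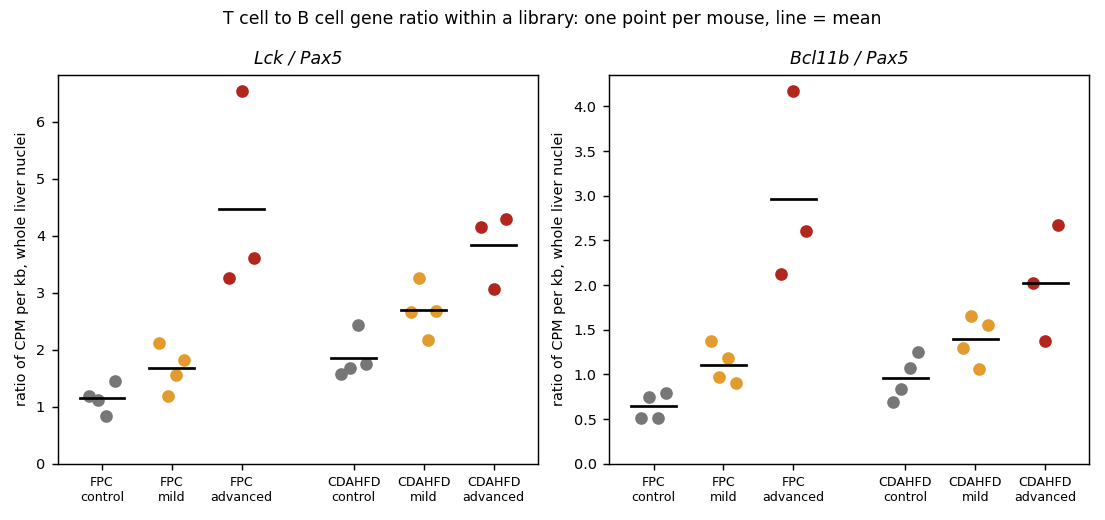
Ratio of Lck to Pax5 (left) and of Bcl11b to Pax5 (right), in CPM per kb of gene, in each whole liver library; points are mice and lines are means. In both panels the advanced mice have the highest means of their study, and the FPC advanced mice do not overlap the FPC mild mice.

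Per length, Ptprc led the 8 genes in whole liver of every group. In advanced FPC mice it averaged 2.54 CPM per kb, followed by Themis (0.65), Lck (0.37), Cd79b (0.31), Cd3e (0.30), Skap1 (0.29), Bcl11b (0.24) and Pax5 (0.083). In FPC control mice the order was Ptprc (0.41), Cd79b (0.17), Themis (0.15), Lck (0.072), Skap1 (0.066), Pax5 (0.064), Cd3e (0.061) and Bcl11b (0.040). Those from Lck to Cd3e in control mice lay within the spread between mice of each other.

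In pulled-down hepatocyte nuclei 7 of the 8 genes were low and Themis was not. The summed level of 10 hepatocyte genes, a check of the label, was 7412 to 21431 CPM in the hepatocyte libraries and 5373 to 20109 CPM in the whole liver libraries. The reference for RNA or nuclei of other cells in that fraction was a list of 14 endothelial genes, summed per library: in each mouse its level in hepatocyte nuclei was 7.07 to 24.1% of that in whole liver nuclei (median 11.8%). By group it averaged 9.05 ± 0.74% in control, 17.3 ± 4.93% in mild and 11.01 ± 2.36% in advanced FPC mice, and 9.55 ± 1.78%, 12.2 ± 0.47% and 15.5 ± 1.58% in the same groups under CDAHFD (SD). Hepatocyte libraries of the CDAHFD mice Control_9862 and Control_9867 deviated crosswise with their whole liver libraries (r of -0.23 and -0.31 with their own, where 20 of 22 mice exceeded 0.1), so a ratio per mouse in these 2 animals may join different mice.

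The median ratio of hepatocyte to whole liver nuclei over the 22 mice was 12.6% for Lck, 12.1% for Cd79b, 10.1% for Cd3e, 8.02% for Pax5, 7.88% for Bcl11b, 6.87% for Skap1 and 6.54% for Ptprc. It exceeded the endothelial ratio of the same mouse in 15 mice for Lck, 10 for Cd79b, 8 for Cd3e, 3 each for Skap1 and Bcl11b, 2 for Ptprc and 1 for Pax5. For Themis the median was 97.0% (48.0 to 168%), above the endothelial ratio in 22 of 22 mice, by 7.92 times at the median. Without Control_9862 and Control_9867 it was above in 20 of 20 (median 100.3%). By group the Themis ratio averaged 80.8 ± 18.9% in control, 119 ± 20.9% in mild and 115 ± 46.2% in advanced FPC mice, and 64.8 ± 13.8%, 111 ± 12.7% and 125 ± 30.3% in the same order under CDAHFD (SD). Against a list of stellate cell genes, whose median ratio was 32.7%, Themis stood 3.04 times as high at the median and the other 7 genes 0.20 to 0.39 times. The level of Themis in this fraction lay above both lists, whereas the description of the 8 genes places them near carry-over.

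**Figure D4:**
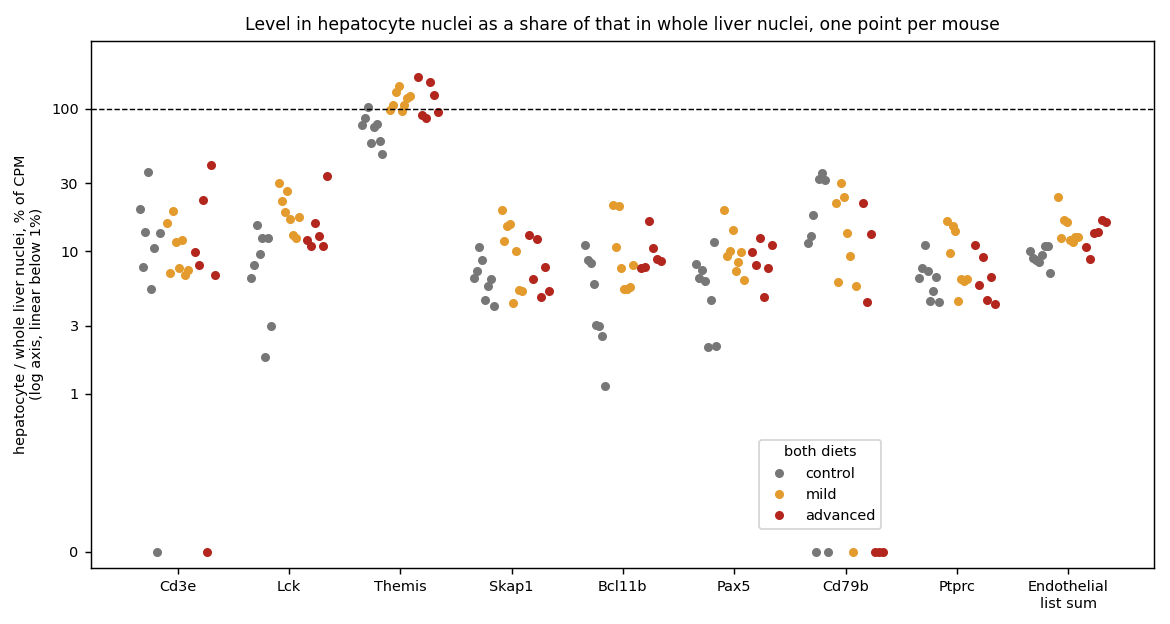
CPM in hepatocyte nuclei as a percentage of CPM in whole liver nuclei of the same mouse, for the 8 genes and for the sum of the endothelial list, on an axis that is logarithmic above 1% and linear below; points are mice of both diets, coloured by disease, and the dashed line marks equal levels. Themis lies between 48.0 and 168%, and the medians of the other genes lie between 6.54 and 12.6%.

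Tested against whole liver nuclei, hepatocyte nuclei had lower levels of all 8 genes except Themis in 5 of the 6 groups. In CDAHFD control mice 6 were lower, and Cd79b, on 0 to 3 counts a hepatocyte library, was at -1.62 ± 0.71 (adjusted p = 0.089). The background of genes called lower was 16.2, 19 and 17.7% in control, mild and advanced FPC mice and 16.4, 27.6 and 23% in control, mild and advanced CDAHFD mice. In advanced FPC mice the changes ran from -3.43 ± 0.46 for Ptprc to -2.86 ± 0.47 for Cd79b, and in control CDAHFD mice Bcl11b reached -5.11 ± 0.35 (1.8e-10). Cd79b had no count in the 3 hepatocyte libraries of advanced CDAHFD mice, which makes it at least 12.3-fold lower there than in whole liver, from 3 counts over the group. Splits of called genes in these comparisons depend on scaling: in control FPC mice 7.68% of calls were higher after TMM and 0.0389% after library totals, and in the other groups 21.5 to 47.1% after TMM and 3.69 to 36.9% after library totals.

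In the main fits, which had no term for the mouse, Themis was not called between the fractions in any group, with log2 differences from -0.31 ± 0.37 to 0.39 ± 0.56 (adjusted p 0.52 to 0.89). With the mouse as a block, which pairs the 2 libraries of an animal, it was higher in hepatocyte nuclei of mild FPC mice (0.39, adjusted p = 0.042) and of advanced CDAHFD mice (0.39, 0.030) and lower in those of CDAHFD controls (-0.41, 0.023). In these block fits 3958 genes were higher and 3265 lower of 14333 in mild FPC mice. Of 14315 genes, 3694 were higher and 3664 lower in advanced CDAHFD mice, and 3712 and 2474 in CDAHFD controls. With Control_9862 and Control_9867 exchanged, Themis was also called in mild CDAHFD mice (0.27, 0.031), beside 4839 genes higher and 4721 lower.

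The levels of Themis itself set it apart. In hepatocyte nuclei it measured 38.9, 44.7, 14.7 and 5.10 CPM in control, 280, 155, 344 and 292 CPM in mild, and 248, 154 and 85.1 CPM in advanced FPC mice. In whole liver nuclei of the same mice it measured 50.6, 51.6, 14.4 and 8.91 CPM in control, 285, 146, 265 and 204 CPM in mild, and 147, 170 and 99.3 CPM in advanced mice. Every NASH mouse exceeded every control mouse in both fractions, and the 2 highest control mice were the same in both.

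Under CDAHFD, hepatocyte nuclei held 14.2, 13.1, 5.87 and 3.24 CPM of Themis in control, 232, 190, 231 and 318 CPM in mild, and 149, 182 and 172 CPM in advanced mice. Whole liver nuclei held 19.2, 16.9, 9.93 and 6.76 CPM in control, 243, 180, 193 and 259 CPM in mild, and 96.0, 145 and 183 CPM in advanced mice. Here too the NASH mice lay above all controls, by a wider gap than under FPC.

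In hepatocyte nuclei Themis was higher by 2.30 ± 0.62 (adjusted p = 0.011) in advanced and 3.16 ± 0.62 (0.0026) in mild FPC mice, and by 3.71 ± 0.41 (2.1e-05) in advanced and 4.39 ± 0.41 (1.1e-05) in mild CDAHFD mice. In whole liver nuclei it was higher by 1.72 ± 0.52 (0.015) and 2.57 ± 0.51 (0.002) under FPC, and by 2.96 ± 0.34 (2e-05) and 3.68 ± 0.33 (4.3e-06) under CDAHFD. Fitted with the advanced and control groups alone, the advanced FPC whole liver value was not called (adjusted p = 0.054). Means were lower in advanced than in mild mice of each study and fraction, and none of these differences was called (adjusted p 0.29 to 0.36 in whole liver, 0.35 to 0.40 in hepatocyte nuclei). Themis was the 1 gene of the 8 in the authors' deposited table of hepatocyte comparisons. That table gives log2 fold changes over control of 2.29 (adjusted p = 0.00032) and 3.12 (9.1e-08) in advanced and mild FPC mice, and 3.75 (7.4e-10) and 4.41 (4.9e-15) in advanced and mild CDAHFD mice.

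**Figure D5:**
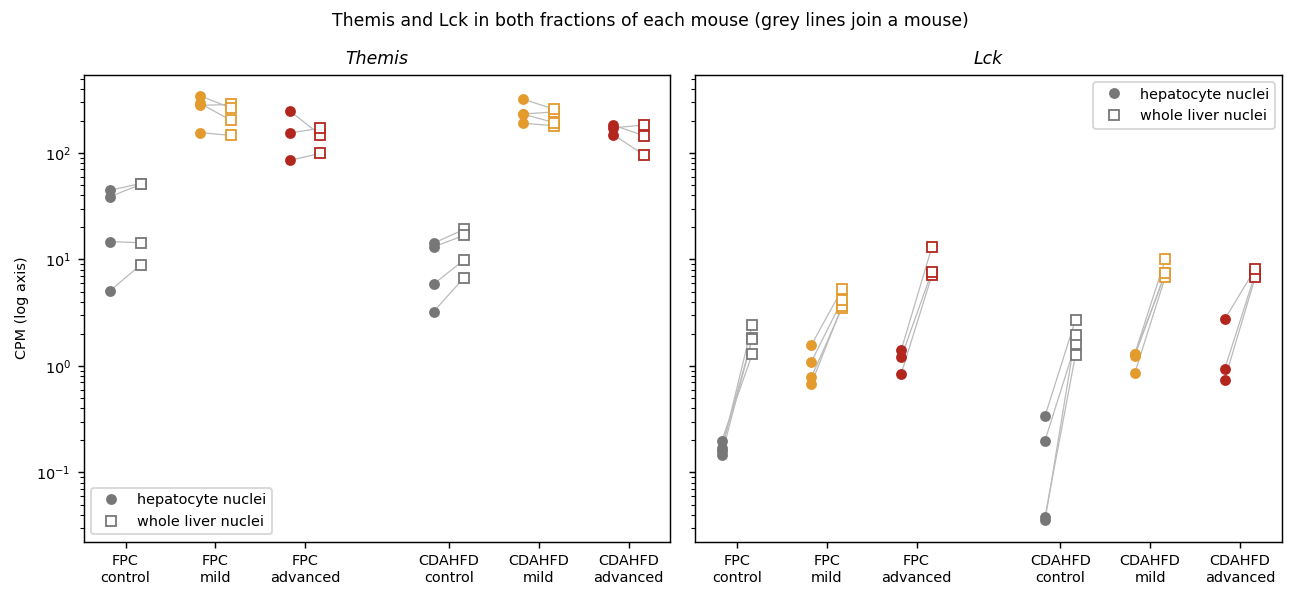
CPM of Themis (left) and Lck (right) on a log axis in hepatocyte nuclei (filled circles) and whole liver nuclei (open squares) of each mouse, joined by grey lines; colours mark control, mild and advanced mice. The lines of Themis are nearly level, while those of Lck climb toward whole liver nuclei in every mouse.

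The gene next to Themis on the same strand, Ptprk, ends 70962 bases before it in GENCODE M21 and encodes a receptor phosphatase. Ptprk also stood near its whole liver level in hepatocyte nuclei (median ratio 100.4%), but it was lower in hepatocyte nuclei of advanced than of control mice, with changes of -0.50 ± 0.15 (adjusted p = 0.014) under FPC and -1.10 ± 0.12 (1.3e-05) under CDAHFD. The Themis gene overlaps the pseudogenes Gm47834 (463 bases) and 4930519F09Rik (2898 bases) on the opposite strand. The counting tool and its strand setting are not given in the sources used here, so reads of these overlaps cannot be told apart from Themis.

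Within hepatocyte nuclei, Cd3e and Cd79b had too few counts to be tested in either study. Of the 6 genes tested in advanced against control mice, 5 were higher under FPC, where 26.5% of all genes were, and 5 under CDAHFD, where 30.3% were. In mild against control mice all 6 were higher, where 21.8% of all genes were under FPC and 29.6% under CDAHFD. The expression filter keeps a gene with enough counts in 1 group, so a gene low in controls can pass through the NASH groups. In control hepatocyte libraries Lck held 3 to 5 counts under FPC and 1 to 6 under CDAHFD, and Bcl11b 1 to 3 under CDAHFD. These counts of higher genes therefore depend in part on the filter. Pax5 was the gene not called in advanced mice, at 0.49 ± 0.35 (adjusted p = 0.27) under FPC and 1.11 ± 0.59 (0.13) under CDAHFD; the second was called without Control_10110 (1.85, 0.011) or after library-total scaling (1.58, 0.038). Skap1 was no longer called in advanced CDAHFD mice without Advanced_10104 (1.09, 0.054). None of the 6 was called by edgeR between advanced and mild mice (0 also with DESeq2; 1 under FPC and 0 under CDAHFD at an unadjusted p under 0.05), where 20.2% of all genes were under FPC and 2.82% under CDAHFD.

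Lck in hepatocyte nuclei was 0.145 to 0.197 CPM in control, 0.684 to 1.58 CPM in mild and 0.850 to 1.42 CPM in advanced FPC mice. The endothelial ratio given above was also higher in mild and advanced than in control mice of both studies, and its part in these changes was not tested.

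A test of whether the change with advanced disease differed between fractions called 1 of the 8 genes under CDAHFD, where 3.63% of all genes were called in that direction, and none under FPC by edgeR (0 with DESeq2 and 0 at an unadjusted p under 0.05), where 3.82% were called. The CDAHFD gene was Bcl11b, with a change larger in hepatocyte than in whole liver nuclei by 1.80 ± 0.49 (adjusted p = 0.023). In hepatocyte nuclei it measured 0.080, 0.106, 0.113 and 0.038 CPM in control, 0.727, 1.03, 0.698 and 1.28 CPM in mild, and 1.40, 0.989 and 1.60 CPM in advanced CDAHFD mice. The control values rest on 1 to 3 counts a library. The ratio to whole liver was 9.28 ± 1.12% in advanced and 2.42 ± 0.88% in control mice, both below the endothelial ratio of the same groups. The call was lost without Control_9867 (1.93, 0.051), Control_10113 (1.58, 0.080) or Advanced_9845 (1.72, 0.058). These values come from the fit without a term for the mouse. With the mouse as a block Themis was called too (0.79, adjusted p = 0.011), where 1054 of 14315 genes were higher and 1518 lower. Of all genes called in this test 35.4% were higher after TMM and 54.2% after library totals.

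Other genes of the same cells gave the setting in whole liver nuclei. Of 28 T cell genes other than the 5 above, 22 were higher and none lower in advanced against control FPC mice (median 1.79), where 31.3% of all genes were higher, and of 27 tested under CDAHFD 21 were higher and none lower (median 1.37), where 29.7% of all genes were higher. Among the largest changes called were those of Pdcd1, an inhibitory receptor of activated and exhausted T cells (4.42 ± 0.80, adjusted p = 0.00044, under FPC and 4.55 ± 1.002, 0.0019, under CDAHFD), and Cd8a, the co-receptor of cytotoxic T cells (3.57 ± 0.54, 0.00011, and 3.27 ± 0.44, 4.3e-05). The others were those of Ctla4, another inhibitory receptor, under FPC (2.84 ± 0.67, 0.0029) and of Il7r, the receptor for a survival cytokine, under CDAHFD (3.998 ± 0.31, 4.1e-07). Cd8a averaged 1.95 ± 1.20 CPM in advanced and 0.11 ± 0.07 CPM in control FPC mice, and 1.97 ± 0.69 CPM in advanced and 0.14 ± 0.10 CPM in control CDAHFD mice. Pdcd1 averaged 0.98 ± 0.35 CPM in advanced and 0.02 ± 0.03 CPM in control FPC mice, and 0.78 ± 0.79 and 0.02 ± 0.02 CPM under CDAHFD. Ctla4 averaged 0.71 ± 0.45 and 0.07 ± 0.03 CPM under FPC. Genes with almost no counts in controls could pass the expression filter through the NASH mice, so the size of such changes is uncertain.

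Between advanced and mild mice, 7 of the 28 T cell genes were higher under FPC and none lower (median 0.65), where 13.3% of all genes were higher. Under CDAHFD none of 27 was called (median -0.10), where 117 of all 14098 genes were higher and 148 lower. Mild against control mice gave 18 higher of 28 under FPC and 22 of 27 under CDAHFD, with none lower. The share of all genes called higher was 25% and 27.7% there.

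Of 18 other B cell genes tested, 8 were higher in advanced (median 0.42) and 10 in mild (median 0.66) against control FPC mice, with none lower, where 31.3% and 25% of all genes were higher. Under CDAHFD 10 were higher in advanced (median 0.87) and 15 in mild mice (median 1.49), with none lower, where 29.7% and 27.7% of all genes were higher. The largest changes were in Ly6d, a surface protein of B cell precursors (6.10 ± 0.47, adjusted p = 3.7e-07, under FPC and 4.23 ± 0.38, 1.3e-06, under CDAHFD), Cd72, a B cell co-receptor that macrophages also carry (2.96 ± 0.17, 3.4e-08, and 3.29 ± 0.14, 5.7e-09), and Blnk, an adaptor of the B cell receptor that macrophages also express (2.29 ± 0.16, 1.4e-07, and 3.36 ± 0.19, 3e-08). Ly6d stood as high in hepatocyte as in whole liver nuclei of advanced FPC mice (4.52 ± 0.90 and 4.93 ± 2.30 CPM). In whole liver of control mice it averaged 0.05 ± 0.01 CPM under FPC and 0.14 ± 0.09 CPM under CDAHFD. It could pass the expression filter through the NASH mice, so the size of its change is uncertain.

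Recruited macrophage genes moved in the same libraries. All 8 were higher in advanced against control mice of both studies (median 4.98 under FPC and 5.46 under CDAHFD). Their sum was 5.51 to 8.70 CPM in control, 109 to 119 CPM in mild and 191 to 211 CPM in advanced FPC mice, and 9.34 to 10.7 CPM, 648 to 993 CPM and 974 to 1128 CPM in the same order under CDAHFD. No gene of that list was at 0 in a whole liver library. Of 7 Kupffer cell genes, 2 were higher and 2 lower in advanced FPC mice, and 5 higher and 2 lower in advanced CDAHFD mice. Beside both lists, of all 14129 genes tested in advanced against control FPC mice 4428 were higher and 3954 lower. Under CDAHFD 4194 of 14098 were higher and 3653 lower. The part of macrophages in the B cell list was not tested.

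Of 14 natural killer and cytotoxic genes listed, 8 were tested under FPC and 11 under CDAHFD, and the rest fell below the expression filter. In advanced against control mice 7 were higher under FPC (median 1.65) and 10 under CDAHFD (median 2.03). The share of all genes called higher was 31.3% under FPC and 29.7% under CDAHFD. Genes nearly silent in controls could pass the filter through the NASH mice: Ncr1 averaged 0.10 CPM in FPC and Xcl1 0.05 CPM in CDAHFD controls. Ncr1, an activating receptor of natural killer cells, led under FPC (4.07 ± 0.53, adjusted p = 2.9e-05) and was higher under CDAHFD (2.69 ± 0.28, 5.2e-06). Ccl5, a chemokine of cytotoxic cells, was higher by 2.46 ± 0.43 (0.00032) and 2.99 ± 0.70 (0.0031), Klrd1, a natural killer receptor chain, by 2.34 ± 0.37 (0.00016) under FPC, and the chemokine Xcl1 by 2.87 ± 0.69 (0.0034) under CDAHFD. Of 15 pan-leukocyte genes other than Ptprc 14 were higher under each diet (median 2.05 under both), beside the same shares of all genes, and 1 was lower under FPC. The largest changes were in Coro1a, an actin regulator of leukocytes, Itgb2, the β chain of leukocyte integrins, and Itga4, an integrin chain that binds Vcam1, under FPC (2.54 ± 0.22, 2.46 ± 0.19 and 2.43 ± 0.31), and in Itgb2, Cd48 and the actin regulator Was under CDAHFD (3.28 ± 0.22, 2.71 ± 0.18 and 2.51 ± 0.17).

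Plasma cell genes were divided. Prdm1, a transcription factor of plasma cells and other leukocytes, was higher by 2.49 ± 0.31 (adjusted p = 1.8e-05) in advanced FPC and 2.15 ± 0.21 (3.1e-06) in advanced CDAHFD mice, and Irf4 by 1.25 ± 0.23 (0.00047) and 1.49 ± 0.37 (0.0042). Jchain, which joins secreted immunoglobulins, was lower, with changes of -1.40 ± 0.38 (0.0072) and -2.39 ± 0.60 (0.0046). In hepatocyte nuclei Jchain was lower too, by -3.49 ± 0.49 (7.7e-05) and -5.63 ± 0.80 (9.1e-05), so its fall cannot be read as plasma cell RNA alone. Of the 6 genes in that list 3 were tested under FPC and 4 under CDAHFD.

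Of 13 genes listed for signals that attract or sustain lymphocytes, 12 were measured, and those of them not tested fell below the expression filter. Of 9 genes tested, 8 were higher and 1 lower in advanced FPC mice (median 2.18), and 7 higher and 1 lower in advanced CDAHFD mice (median 1.65). The share of all genes called higher was 31.3% under FPC and 29.7% under CDAHFD. Vcam1, the endothelial ligand of lymphocyte integrins, was higher by 2.97 ± 0.23 (adjusted p = 4.1e-07) and 2.43 ± 0.15 (6.5e-08), and Cxcl10, which attracts activated T cells, by 2.77 ± 0.34 (2e-05) and 2.66 ± 0.38 (6.4e-05). Cxcl16, a ligand for resident T cells, was higher by 2.74 ± 0.14 (1.4e-08) under FPC, and Ltb, a lymphotoxin chain, by 3.07 ± 0.61 (0.00095) under CDAHFD. Ltb averaged 0.06 ± 0.05 CPM in CDAHFD controls and could pass the expression filter through the NASH mice. The size of its change is uncertain.

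Taking mean CPM over the 22 hepatocyte libraries as a share of the mean over the 22 whole liver libraries, the median share was 11.4% over the 28 T cell genes and 10.3% over 19 B cell genes. A share over 50% was found for 3 of the T cell genes, Tox (93.0%), Tcf7 (93.2%) and Lat (60.8%), and for 2 of the B cell genes, Ly6d (113%) and Ralgps2 (113%); this boundary was set after the values were seen. Tox and Tcf7 encode transcription factors of T cell development, and Lat an adaptor that joins the T cell receptor to downstream enzymes. Over the 6 plasma cell genes the median share was 62.7%. Of these, 3 were over 50% (Jchain 98.5%, Mzb1 108% and Derl3 126%) and 3 were not, among them Prdm1 (9.07%) and Irf4 (9.25%).

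Across the 22 whole liver libraries, profiles near those of the 8 genes were looked for. Likeness was the root mean square difference of centred log2 (CPM + 0.1) among 14157 genes. Nearest to Bcl11b was Cd247, the ζ chain of the T cell receptor complex (0.22), to Lck Tbc1d10c (0.23), and to Cd3e Camk4 (0.34). The nearest to Pax5 was Fcer2a, a low-affinity IgE receptor of B cells (0.20), to Cd79b Fcmr, an IgM receptor (0.41), and to Ptprc Dock10 (0.12). Gmnn and Blvrb lay almost as near to Pax5 (0.22 each), and Trps1 to Ptprc (0.12). For Themis it was Cd36, a fatty acid translocase (0.52, where Themis itself varied by 1.77), and then Bub1 (0.67) and Cenph (0.68), both of which act at the kinetochore. Cd36 averaged 23.0 ± 17.8 CPM in control, 145 ± 31.3 CPM in mild and 117 ± 20.7 CPM in advanced FPC hepatocyte nuclei, and 3.07 ± 1.69, 68.9 ± 17.2 and 79.1 ± 26.2 CPM in the same order under CDAHFD, where its mean was higher in advanced than in mild mice, unlike that of Themis. All these profiles share the same 22 libraries and their depth.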

How the data were processed

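RNA of nuclei was measured in 22 hepatocyte and 22 whole liver libraries. Per the submitters' processing notes, reads were aligned to mm10 with STAR 2.4.2a and compared with DESeq2 1.24.0; the counting tool and strand setting are not given in the sources used here. The deposited table holds raw counts for 20105 RefSeq identifiers. The authors' deposited table of hepatocyte comparisons holds log2 fold changes and adjusted p-values for 13147 genes. Symbols came from that table (13147) or RefSeq (6879).

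Counts were tested with edgeR 4.0.16 (quasi-likelihood F-test, robust, TMM, filterByExpr) in R 4.3.3, with p-values adjusted by Benjamini-Hochberg across the genes that passed the filter and called under 0.05, fitting all 3 disease groups of a diet and fraction together; both fractions or both diets entered the fits of fraction and diet. The main fits that held both fractions had no term for the mouse, so they did not use the pairing of its 2 libraries. Each standard error was taken from the size of the log2 change and the root of its F. DESeq2 1.42.0, other scalings and filters, fits of 2 groups, the mouse as a block and leaving out each mouse were the alternatives.

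Animal numbers in the labels pair the libraries of a mouse. Deviations from group means over 10324 genes correlated above 0.1 in 20 of 22 mice. Replicates are separate mice. No pair of replicates agreed within sampling noise (their chi-square was 20.9 to 290.03 times its degrees of freedom). Depth ran from 12.1 to 33.1 M counts (median 22.8 M), and the floor of 3 counts covers counting error only.

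The 8 genes and all lists were chosen with earlier results of these data known. Genes named beside the 8 were, per list and diet, up to 3 with the largest absolute change among those called in advanced against control whole livers, and, for likeness, up to 3 nearest profiles per gene. Some genes that these rules name are not reported here.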

Additional observations from a re-analysis of the deposited data

Results flagged for a closer look

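In 64 groups of 4 mice, 1 mouse stood far from the other 3 in 6 cases, where chance gives about 1 in 20. In whole liver nuclei, Cd3e was low in the CDAHFD mouse Control_10113 at 0.283 CPM, Skap1 was high in Control_10110 at 24.7 CPM and low in Mild_9894 at 52.3 CPM, and Cd79b was high in the FPC mouse Mild_6886 at 1.61 CPM. In hepatocyte nuclei, Lck was low in the CDAHFD mouse Mild_9894 at 0.859 CPM and Ptprc was high in Control_10110 at 3.89 CPM.

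In 2 cases an effect differed between groups by a test of the difference in the main fits. The change of Pax5 in mild against control whole livers was larger under CDAHFD than under FPC by 0.82 (log2, adjusted p = 0.025), where 2.69% of all genes were. The change of Bcl11b in advanced against control CDAHFD mice was larger in hepatocyte than in whole liver nuclei by 1.80 (adjusted p = 0.023), where 3.63% of all genes were. Each call was lost in several fits that left out 1 mouse, as given above. The Bcl11b values of control hepatocyte nuclei rest on 1 to 3 counts a library. With the mouse as a block, Themis was called as well in the second test (0.79, adjusted p = 0.011).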

How the results depend on the processing

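No called result changed direction under the alternatives run. Between advanced and mild FPC whole livers, where 2 of the 8 genes were called, library-total scaling, an alternative added after seeing the data, called 4, and leaving out each mouse gave 1 to 5. Of all 14129 genes, 1881 were higher and 1269 lower there in the main fit, and 2636 and 670 by library totals. Between advanced and mild CDAHFD whole livers, where 1 was called, library-total scaling and the fit with no expression filter each called 0, and leaving out each mouse gave 0 to 1. Of all 14098 genes, 117 were higher and 148 lower there in the main fit, and 156 and 89 by library totals. With no filter 118 were higher and 142 lower of 17286. For the difference between fractions under CDAHFD, where 1 was called, DESeq2 called 2, the mouse as a block, which uses the pairing of libraries, called 2, and the block with Control_9862 and Control_9867 exchanged, also added after seeing the data, called 3. Calls over all genes were more numerous in these fits too. The main fit called 519 genes higher and 947 lower of 14315, and DESeq2 947 and 897 of 15146. The block called 1054 and 1518 of 14315, and the exchanged block 1804 and 2439. Leaving out each mouse gave 0 to 1 for this difference between fractions, 0 to 1 for the diet difference in mild mice, 4 to 7 for mild against control FPC whole livers, 6 to 7 for advanced against control CDAHFD whole livers and 4 to 6 for their hepatocyte nuclei. Shares of all genes in the fits with a mouse left out are not given here. The block changed the calls of Themis and, when exchanged, of Cd79b, and no other call. Against the stellate in place of the endothelial list, 1 gene (Themis) in place of 2 (Themis and Lck) stood above the list of the same mouse at the median. The cause of these shifts was not tested. Depth limits Cd3e and Cd79b in hepatocyte nuclei, which held 0 to 12 counts a library.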
